A study of Mus musculus with 6 samples.

Results

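Serotonin receptor genes were examined in RNA from the mouse hippocampus, in CBP-ifKOs and their control littermates. The 10 genes described here, Htr1a, Htr1b, Htr1d, Htr2a, Htr2c, Htr3a, Htr4, Htr5a, Htr5b and Htr7, were chosen by name out of the 14 serotonin receptor genes in a table of 55471 genes, with results of this same genotype comparison already known. Their counts in these 6 libraries were therefore part of the choice, and the difference between genotypes is given for them as a description, with no p-value. The comparison of the genotypes bears on what the loss of CBP in adult forebrain neurons does to hippocampal transcripts. Of the 10 genes, 3 were lower in CBP-ifKOs past the threshold used here: Htr1a at 58.7%, Htr2a at 60.1% and Htr4 at 65.2% of the Control level. Of all genes tested, 4.99% were called lower, and given how the genes were chosen nothing is read from their count. Htr5a differed between the genotypes by less than the spread of the libraries, and Htr1d was hardly counted in any library.

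Serotonin is released in the hippocampus by axons whose cell bodies lie in the raphe nuclei of the brainstem, so a hippocampal sample holds the receptors of the target cells and few of the transcripts of the serotonergic neurons themselves. Most of its receptors act through G proteins: the 5-HT1 and 5-HT5 types mainly lower cyclic AMP through Gi/o, the 5-HT2 types activate phospholipase C through the Gq family, and the 5-HT4, 5-HT6 and 5-HT7 types raise cyclic AMP through Gs. The 5-HT3 type is a cation channel opened directly by serotonin. CBP, encoded by Crebbp, is a lysine acetyltransferase and a coactivator of CREB, a transcription factor that is phosphorylated downstream of cyclic AMP and binds the cyclic AMP response element.

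The samples were 3 Control and 3 CBP-ifKO libraries from C57BL/6 mice (C57BL/6J in the study's methods) aged 3 to 6 months, all given tamoxifen 5 times at 20 mg/mL. CBP-ifKOs carried floxed Crebbp alleles and creERT2, a Cre recombinase switched on by tamoxifen, under the Camk2a promoter, which is active in forebrain excitatory neurons, so other hippocampal cells were not targeted. Controls were described as littermates without creERT2, although another label field of these samples names the driver; Esr1, part of whose sequence lies in creERT2, averaged 6.07 ± 0.36 CPM in Control against 66.7 ± 2.91 CPM in CBP-ifKO (SD, n = 3). The study's methods describe experiments on pooled hippocampi of 3 female mice and on single mice, and the labels do not say which applies, so the p-values measure the spread between these libraries only.

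Total counts ran from 10199008 to 14950257 per library. Levels are given in CPM, which relates a gene's count to the TMM-scaled total of its library. A gene was called when its edgeR quasi-likelihood test gave an adjusted p under 0.05 over the 17981 genes tested. Crebbp, the targeted gene, fell from 191 ± 30.1 to 98.4 ± 10.8 CPM, a log2 difference of -0.96 (edgeR adjusted p 3.63e-05), and Arsi, a neighbour of Camk2a, rose from 0.77 ± 0.26 to 5.32 ± 0.90 CPM (edgeR adjusted p 2.82e-05). Across all genes, 252 were called higher and 897 lower, and with scaling by library totals alone this split was 514 higher and 667 lower; under that scaling the median over all genes tested was shifted on the log2 scale, from -0.0033 to 0.043.

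The sequence before the start of a receptor gene is shown because CBP works with factors that bind such regions. RefSeq promoter windows (GRCm38.p6, 250 bases before to 50 bases after the annotated start) were found by symbol for 7 of the 10 genes, and Htr3a, Htr4 and Htr5b had none in the table used. Each window was searched on both strands for the full cyclic AMP response element (CRE), TGACGTCA, for its half-site, TGACG or CGTCA, which the full element also holds, and for the AP-1 motif TGANTCA. The full CRE was in 0 of the 7 genes' windows and in 1.79% of 32817 promoter windows. The half-site was in 1 of the 7, in the window of Htr7 at position -87 from the start, and in 20.8% of all windows. The AP-1 motif was in 1 of the 7, in that of Htr2c at position -198, and in 7.81% of all windows. These letter matches describe the windows and show no binding.

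The stretches below are those of 2 genes that were lower in CBP-ifKOs, Htr1a and Htr2a, of Htr2c, whose AP-1 match is in capitals, and of Htr5a, whose libraries overlapped between genotypes. Each lies on the plus strand, at chr13:105443443-105443638, chr14:74640624-74640839, chrX:146962263-146962512 and chr5:27841697-27841946, and stops before the first base of the gene in the GENCODE annotation. The stretch of Htr5a does not adjoin the gene there, since it ends at 27841946 and GENCODE starts Htr5a at 27842149.
Htr1a: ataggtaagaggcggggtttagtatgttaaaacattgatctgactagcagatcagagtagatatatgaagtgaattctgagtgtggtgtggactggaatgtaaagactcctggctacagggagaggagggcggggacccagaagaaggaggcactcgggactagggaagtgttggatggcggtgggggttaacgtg
Htr2a: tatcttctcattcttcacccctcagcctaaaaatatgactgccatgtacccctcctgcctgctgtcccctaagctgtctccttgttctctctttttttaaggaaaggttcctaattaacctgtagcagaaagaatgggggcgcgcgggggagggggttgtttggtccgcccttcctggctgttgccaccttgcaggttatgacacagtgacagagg
Htr2c: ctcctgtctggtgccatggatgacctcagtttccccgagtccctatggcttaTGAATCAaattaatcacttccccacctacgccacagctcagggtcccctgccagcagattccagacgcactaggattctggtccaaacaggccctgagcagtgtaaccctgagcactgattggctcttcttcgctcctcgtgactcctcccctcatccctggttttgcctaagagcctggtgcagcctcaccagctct
Htr5a: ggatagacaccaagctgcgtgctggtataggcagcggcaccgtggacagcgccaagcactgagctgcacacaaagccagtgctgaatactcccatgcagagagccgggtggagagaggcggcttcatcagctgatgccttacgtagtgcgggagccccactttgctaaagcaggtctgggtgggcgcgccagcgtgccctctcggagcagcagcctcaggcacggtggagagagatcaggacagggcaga

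Among the receptors coupled to Gi/o, Htr1a was the most abundant per length and the only gene called lower. It encodes the 5-HT1A receptor, which hyperpolarizes hippocampal pyramidal and granule neurons through potassium channels, and is a single-exon gene (ENSMUSG00000021721, GRCm38 chromosome 13, 105443639 to 105448122). Htr1a was at 39.1, 33.2 and 32.8 CPM in Control replicates 1 to 3 and at 17.5, 24.7 and 19.5 CPM in CBP-ifKO, with replicates in the same order here and throughout. The groups did not overlap, and CBP-ifKO replicate 2 was nearest to Control. The mean went from 35.04 ± 3.48 to 20.6 ± 3.71 CPM (SD, n = 3), or -0.75 on the log2 scale (SE 0.12), called lower. Without CBP-ifKO replicate 2 the log2 fold change was -0.91. These values rest on 181 to 416 counts per library.

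Htr1b, whose product is an inhibitory receptor found on axon terminals, lies on chromosome 9 (81628291 to 81633828). It was at 7.79, 7.30 and 7.64 CPM in Control and at 6.40, 6.97 and 6.17 CPM in CBP-ifKO. All 3 CBP-ifKO libraries were below all 3 Control libraries, but the step was small and the gene was not called (log2 fold change -0.21, SE 0.14). Exons of D430036J16Rik on the other strand cover 18.0% of the exon bases of Htr1b. Of the 50-base stretches of Htr1b transcripts, 17.1% also occur, on either strand, in transcripts of other genes. Both figures can thus count the same bases. The count of Htr1b is less certain than those of the other receptors. Htr1d, a related terminal receptor, had 0, 2 and 1 counts in Control and 0, 2 and 1 counts in CBP-ifKO, so no difference was detectable at this depth and the gene was not tested. A count of 0 allows up to 3 counts, which is 0.28 CPM in Control replicate 1 and 0.29 CPM in CBP-ifKO replicate 1, as far as counting error goes.

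Neither 5-HT5 receptor gene was called. Htr5a (chromosome 5, 27842149 to 27855088) was at 15.4, 14.1 and 14.3 CPM in Control and at 14.5, 15.2 and 14.98 CPM in CBP-ifKO. The groups overlapped throughout, and the log2 fold change was 0.035 (SE 0.11), the only one above 0 among the 9 listed receptors that were tested. Htr5b (chromosome 1, 121509842 to 121528465) was the sparsest of the tested ones, with 33 to 56 counts per library. It was at 5.26, 4.72 and 3.57 CPM in Control and at 3.20, 2.69 and 4.11 CPM in CBP-ifKO. The groups overlapped, since CBP-ifKO replicate 3 stood above Control replicate 3, and the gene was not called (log2 fold change -0.45, SE 0.22). The log2 fold change was -0.29 without CBP-ifKO replicate 2 and lay between -0.62 and -0.29 over the fits that left out 1 library. Habenular neurons are a known site of Htr5b, and 7 habenula markers summed to 74.4 to 80.2 CPM in Control against 61.9 to 63.1 CPM in CBP-ifKO. Most of this sum was Nwd2, whose Control mean of 59.7 CPM compared with 46.0 for CBP-ifKO. Of the 5 tested, 1 was called lower, Nwd2, and all 5 had a log2 fold change below 0. Over all genes tested, 4.99% were called lower and 50.7% had a log2 fold change below 0. Gpr151 differed by less than its spread (2.95 ± 0.89 against 2.61 ± 0.11 CPM). Pou4f1 had at most 2 counts and Chrnb4 at most 3 in a library. The sum thus mainly follows 1 gene, and the part of habenular cells in the values of Htr5b was not tested.

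**Figure D1:**
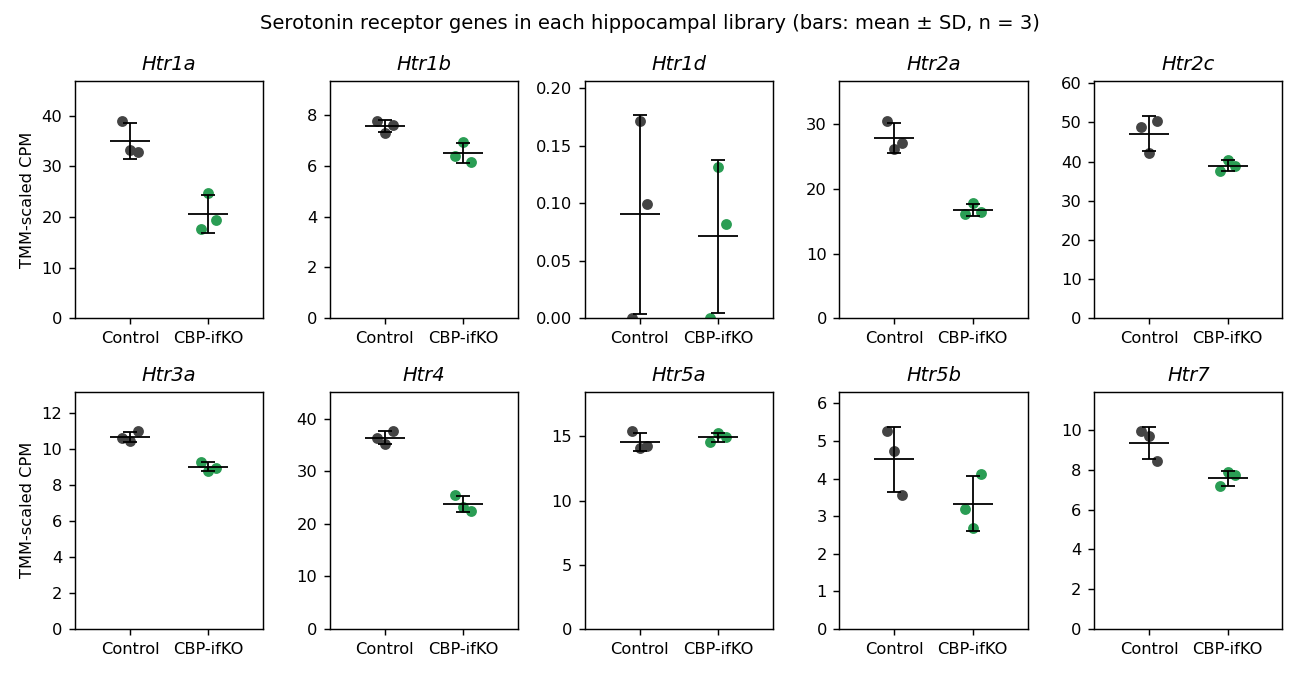
Levels of the 10 listed serotonin receptor genes in TMM-scaled CPM, with 1 panel a gene, 1 point a library, and bars for mean ± SD (n = 3 in each group). The Control and CBP-ifKO points are apart for Htr1a (32.8 CPM as the lowest Control, 24.7 as the highest CBP-ifKO), Htr2a and Htr4, apart by less for Htr1b, Htr2c, Htr3a and Htr7, and they overlap for Htr1d, Htr5a and Htr5b.

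Of the Gq-coupled receptors, Htr2a was called lower and Htr2c was not called. Htr2a encodes the 5-HT2A receptor, the target of classical hallucinogens, on chromosome 14 (74640840 to 74709494). It was at 30.6, 26.2 and 27.1 CPM in Control and at 16.2, 17.9 and 16.4 CPM in CBP-ifKO. The CBP-ifKO libraries lay close together and well below Control. The mean went from 28.0 ± 2.33 to 16.8 ± 0.93 CPM (SD, n = 3), or -0.73 on the log2 scale (SE 0.099), called lower. The 5-HT2A receptor is also abundant in neocortex, and 6 neocortex markers summed to 163 to 185 CPM in Control against 134 to 166 CPM in CBP-ifKO. Of the 5 tested, 0 were called by edgeR or by DESeq2, and 3 were at an unadjusted edgeR p under 0.05. All 5 had a log2 fold change below 0, against 50.7% of all genes tested. The part of these markers in the difference of Htr2a was not tested.

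Htr2c (chromosome X, 146962513 to 147197277) encodes the 5-HT2C receptor, whose transcript is edited and which the choroid plexus also makes. It was at 48.9, 42.1 and 50.5 CPM in Control and at 37.5, 40.4 and 38.9 CPM in CBP-ifKO. The groups did not overlap, with Control replicate 2 just above the highest CBP-ifKO library. The mean was 47.2 ± 4.46 CPM in Control against 38.9 ± 1.43 CPM in CBP-ifKO, which is 82.5%, with a log2 fold change of -0.27 (SE 0.082) that was not called. It was called without Control replicate 2 (-0.34) and with per-library trends on GC content and length removed, with or without the replicate number as a block. The 10 choroid plexus markers summed to 45.4 to 60.7 CPM in Control against 35.9 to 61.1 CPM in CBP-ifKO, and 0 of 5 tested were called by edgeR or DESeq2, with 1, Kl, at an unadjusted p under 0.05 (23.6 ± 2.22 and 28.2 ± 2.50 CPM). Their part in the values of Htr2c was not tested.

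The channel subunit gene Htr3a (chromosome 9, 48899213 to 48911099), expressed in a class of interneurons in the hippocampus, was at 10.6, 10.5 and 11.01 CPM in Control and at 9.30, 8.81 and 8.97 CPM in CBP-ifKO. The libraries of each genotype lay within a narrow band, and the bands did not meet. The mean was 10.7 ± 0.28 CPM in Control against 9.03 ± 0.25 CPM in CBP-ifKO (SD, n = 3), or -0.25 on the log2 scale (SE 0.12), and the gene was not called. Of the 12 interneuron markers, 3 were called lower (Slc32a1, Sst and Calb2) and 0 higher by edgeR, and 2 were called by DESeq2. Of all genes tested, 4.99% were called lower by edgeR. The marker list was chosen with earlier results of these data known, so nothing is read from its count. The log2 fold change was below 0 in 9 of the 12 markers and above 0 in Vip (0.16), Npy (0.11) and Adarb2 (0.0056). The summed level of the 12 markers was 1225 to 1238 CPM in Control against 1151 to 1212 CPM in CBP-ifKO. Their part in the level of Htr3a was not tested.

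Of the Gs-coupled receptors, Htr4 was called lower and Htr7 was not called. Htr4 (chromosome 18, 62324204 to 62496577) encodes the 5-HT4 receptor, which raises the excitability of pyramidal neurons, and was at 36.3, 35.1 and 37.6 CPM in Control and at 25.5, 23.2 and 22.5 CPM in CBP-ifKO. The groups were separated by a gap wider than the range of either. Its mean went from 36.3 ± 1.23 to 23.7 ± 1.58 CPM (SD, n = 3), or -0.62 on the log2 scale (SE 0.086), called lower.

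Htr7 (chromosome 19, 35958734 to 36057507) encodes the 5-HT7 receptor and was at 9.95, 9.71 and 8.43 CPM in Control and at 7.17, 7.89 and 7.74 CPM in CBP-ifKO. The lowest Control library was close to the highest CBP-ifKO library, without overlap. The mean was 9.36 ± 0.82 CPM in Control against 7.60 ± 0.38 CPM in CBP-ifKO (SD, n = 3), or -0.30 on the log2 scale (SE 0.14), and the gene was not called.

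Of the 10 genes, 9 passed the filter on low counts and 3 were called lower and 0 higher by edgeR, the same 3 as by DESeq2. Over all genes tested, 4.99% were called lower and 6.39% in either direction. In 7 of the 9 (Htr1a, Htr1b, Htr2a, Htr2c, Htr3a, Htr4 and Htr7) the highest CBP-ifKO library was below the lowest Control library, which was the case for 13.9% of all genes tested. The log2 fold change was below 0 in 8 of the 9, against 50.7% of all genes tested, and its median was -0.30 against -0.0033 over all genes. Since this comparison was known when the genes were listed, nothing is read from these shares. The 3 called genes lie on different chromosomes and differ in structure, with 1, 3 and 7 exons and a GC content of 49.1%, 41.3% and 44.9% in the longest transcripts of Htr1a, Htr2a and Htr4, within the 41.3% to 55.0% of the 10 genes. In bulk RNA, fewer cells of a type and less RNA per cell cannot be told apart.

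**Figure D2:**
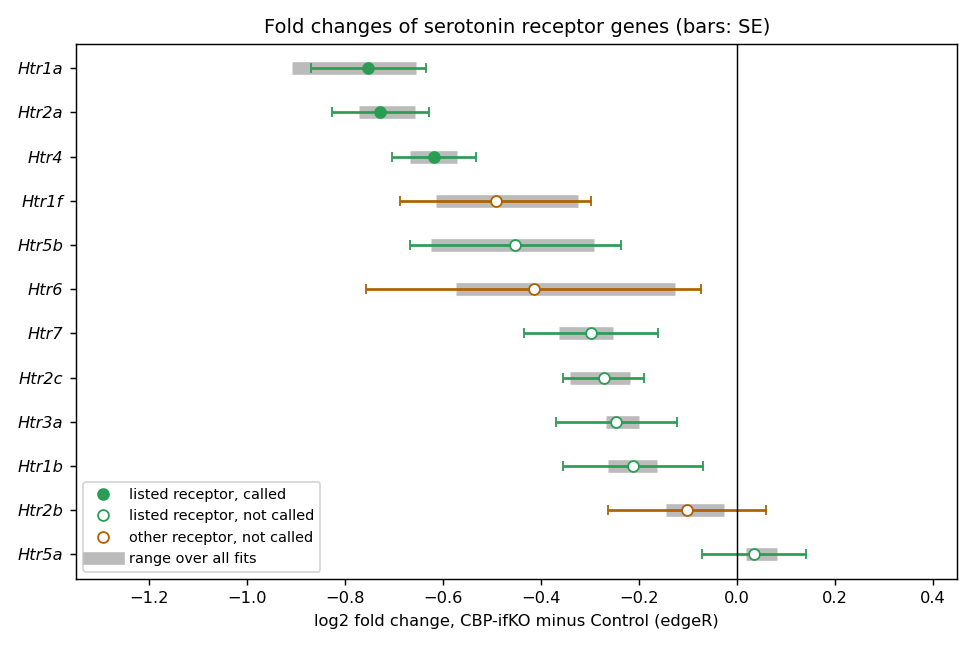
Log2 fold changes, CBP-ifKO minus Control, of the 12 serotonin receptor genes that were tested, with SE as thin bars; filled points were called, open points were not, and grey bars span all fits. Htr1a (-0.75), Htr2a (-0.73) and Htr4 (-0.62) stand lowest, and Htr5a (0.035) is the only one above 0.

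Levels can be compared between genes only per length, here in CPM per kb of exon. In Control, Htr1a (7.81 ± 0.78, SD, n = 3) and Htr4 (7.41 ± 0.25) were first, and their libraries overlapped. Below them came Htr3a (5.14 ± 0.13), Htr2c (5.06 ± 0.48) and Htr2a (4.99 ± 0.42), which did not differ beyond their spread. Htr7 (2.75 ± 0.24), Htr5a (2.71 ± 0.13) and Htr5b (2.33 ± 0.45) formed a lower set in which neighbours overlapped, and Htr1b (1.60 ± 0.053) lay below all libraries of these. Htr1d closed the order at 0.028 CPM per kb.

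In CBP-ifKO the upper part of this order was compressed, as a description of the same values per kb. Htr4 (4.83 ± 0.32 CPM per kb), Htr1a (4.59 ± 0.83), Htr3a (4.33 ± 0.12) and Htr2c (4.17 ± 0.15) followed each other, with overlapping library ranges between neighbours. Htr2a (3.00 ± 0.17) lay apart below them, just above Htr5a (2.78 ± 0.067). Htr7 (2.24 ± 0.11) and Htr5b (1.72 ± 0.37) overlapped, and Htr1b, at 1.38 ± 0.087, overlapped Htr5b. Of the summed CPM per kb of the 10 genes, Htr1a made up 18.7% to 20.7% in Control and 13.8% to 18.3% in CBP-ifKO, and Htr5a 6.79% to 6.84% in Control and 9.44% to 9.66% in CBP-ifKO. The place of Htr2c depended on its length: the deposited length joins all its exons to 9328 bases, while its longest transcript has 4883, and with longest transcripts it came first in Control at 9.66 CPM per kb.

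**Figure D3:**
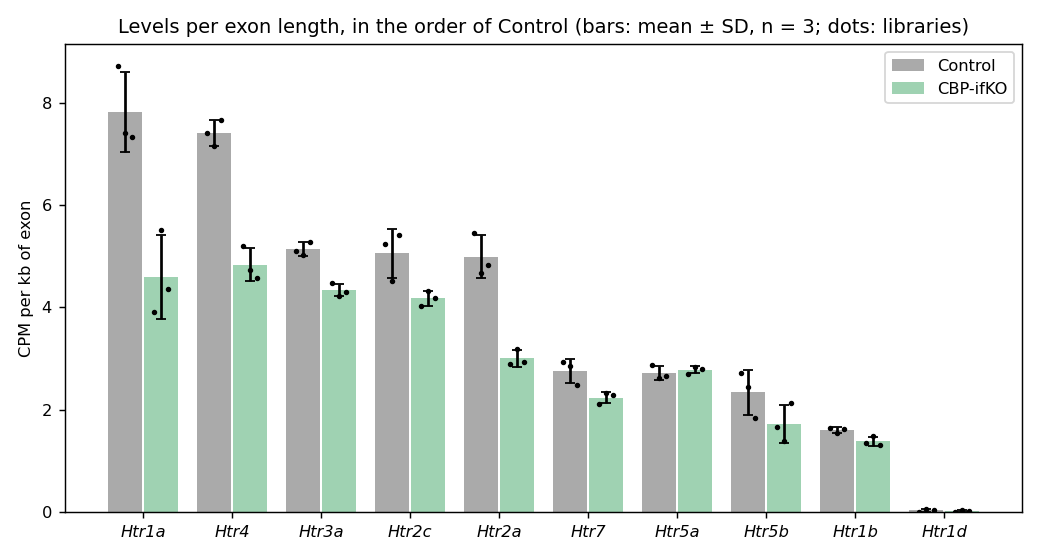
Levels of the 10 listed receptors in CPM per kb of exon, ordered by the Control mean; bars are mean ± SD (n = 3) and dots are libraries. Htr1a and Htr4 lead in Control at 7.81 and 7.41 CPM per kb, and in CBP-ifKO the first 4 genes lie between 4.17 and 4.83 CPM per kb.

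Summed by coupling, the 5 Gi/o genes went from 61.8 ± 4.96 CPM in Control to 45.4 ± 4.07 CPM in CBP-ifKO, which is 73.5%. Both Gq-coupled genes together went from 75.1 ± 6.00 to 55.7 ± 2.30 CPM, which is 74.2%, and both Gs-coupled genes from 45.7 ± 0.77 to 31.3 ± 1.25 CPM, which is 68.5%. Each of these sums holds 1 called gene that carries most of its difference, Htr1a, Htr2a and Htr4 in turn. The channel gene alone was at 84.4% of Control. All 10 together took 1417 to 2250 counts in a library, or 183 to 204 CPM in Control against 137 to 148 CPM in CBP-ifKO.

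The genes whose pattern over the 6 libraries was most like that of a called receptor were taken from 12229 genes with a mean of at least 5 CPM, by Pearson's r of log2 CPM. The closest to Htr1a were Gga2 (r = 0.993), Tmem74 (0.991) and Nmt1 (0.989). The closest to Htr2a were Ppl and Ripor2 (0.998 each) and Slc45a4 (0.996). Those closest to Htr4 were Fbln2 (0.997), Dlx1 (0.996) and Dpysl3 (0.996). All these points share libraries and the genotype split, and the sizes differ: Htr4 was at 65.2% of Control, while Fbln2 had a log2 fold change of -1.27 and Dlx1 of -0.11.

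The rest of the family was Htr1f, Htr2b, Htr3b and Htr6, of which 3 were tested and 0 were called by edgeR or DESeq2, with 1, Htr1f, at an unadjusted p under 0.05. Htr1f, a Gi/o-coupled receptor, was at 5.35, 5.15 and 4.56 CPM in Control and at 3.88, 4.07 and 2.72 CPM in CBP-ifKO. Its groups did not overlap, and the difference was -0.49 on the log2 scale (SE 0.19), short of the threshold at an edgeR adjusted p of 0.151. Among the alternatives it was called in 1, with GC and length trends removed and the replicate number as a block (adjusted p 0.0474), and without CBP-ifKO replicate 3 its log2 fold change was -0.32. Htr6, the remaining Gs-coupled receptor gene, had 9 to 16 counts per library (log2 fold change -0.42, edgeR adjusted p 0.537), and its value was -0.14 once GC and length trends were removed and -0.13 with the block as well. Htr2b, a Gq-coupled receptor gene that shares 11.8% of its exon bases with Psmd1 on the other strand, had a log2 fold change of -0.10 (edgeR adjusted p 0.781). Htr3b, the second channel subunit gene, had 2 counts in Control replicate 1 and 0 in the other libraries.

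Genes that make, carry or break down serotonin gave 0 calls among 6 tested of 9 (edgeR, likewise DESeq2; 0 at an unadjusted p under 0.05). Maoa, the oxidase that degrades serotonin, averaged 36.6 ± 2.73 CPM in Control against 38.4 ± 2.24 CPM in CBP-ifKO (edgeR adjusted p 0.712), and Maob at 21.8 ± 2.54 and 21.1 ± 1.71 CPM (0.867). The vesicular transporter gene Slc18a2 was at 13.2 ± 2.13 and 14.5 ± 0.043 CPM (edgeR adjusted p 0.583). The low-affinity transporter gene Slc29a4 was at 11.1 ± 0.625 and 9.95 ± 1.42 CPM (edgeR adjusted p 0.556), and Ddc, the decarboxylase, at 4.65 ± 0.54 and 4.34 ± 1.34 CPM (0.881). Tph2, the neuronal enzyme that starts serotonin synthesis, had 7 to 20 counts per library (edgeR adjusted p 0.301). Too few counts for a test were found for Tph1 (1 to 7), for Slc6a4, the reuptake transporter (0 to 4), and for Slc22a3 (0 to 8). The 4 raphe markers summed to 0.86 to 1.03 CPM in Control against 0.91 to 2.23 CPM in CBP-ifKO, with at most 2 counts of Fev and 3 of Gata3 in a library, so transcripts of serotonergic cell bodies were near 0.

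Of 25 genes that act below the receptors, 4 were called lower and 1 higher (edgeR), and the median log2 fold change of the 25 was -0.095. Over all genes tested, 4.99% were called lower and 6.39% in either direction. This list was chosen with earlier results of these data known, so nothing is read from its count. Rgs4, which speeds the switching off of Gi/o and Gq proteins, fell from 150 ± 16.2 to 106 ± 11.5 CPM, a log2 difference of -0.50 (SE 0.084), at an edgeR adjusted p of 0.00163. Gnaz, an alpha subunit of the Gi family, fell from 78.6 ± 3.60 to 57.8 ± 5.48 CPM, a log2 difference of -0.44 (SE 0.076), at an edgeR adjusted p of 0.00196. Adcy5, a cyclase that makes cyclic AMP, fell from 100.2 ± 2.14 to 74.5 ± 6.35 CPM, a log2 difference of -0.43 at an edgeR adjusted p of 0.00134, and of -0.24 once GC and length trends were removed (adjusted p 0.0485; -0.23 with the block as well). In every one of these genes the CBP-ifKO libraries lay below the Control libraries, as they did in 13.9% of all genes tested.

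Kcnj9, a subunit of the potassium channels opened by 5-HT1A receptors, fell from 68.9 ± 7.06 to 55.0 ± 3.73 CPM, a log2 difference of -0.33 (edgeR adjusted p 0.0232). Leaving out 1 library ended the call for Control replicate 2 (adjusted p 0.0693) or 3 (0.0610) and for CBP-ifKO replicate 2 (0.143) or 3 (0.0902), as did the removal of GC and length trends (0.0874, or 0.0518 with the block). The partner subunit genes had log2 fold changes of 0.0010 (Kcnj3, edgeR adjusted p 0.996) and -0.045 (Kcnj6, 0.857). Genes on the other strand share 31.1% of the exon bases of Kcnj3 (Gm26794), 4.98% of Kcnj6 (Gm41505) and 4.01% of Kcnj9 (Gm36937), so the count of Kcnj3 is less certain. Gnal, an alpha subunit of the Gs family, rose from 106 ± 4.97 to 123 ± 4.60 CPM, a log2 difference of 0.22 (edgeR adjusted p 0.0462), shares 7.63% of its exon bases with Mppe1, and lost its call when any 1 of the 6 libraries was left out (adjusted p 0.0551 to 0.139).

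Markers of the hippocampal fields were set beside the receptors, because Htr1a and Htr4 are known from pyramidal and granule neurons. All marker lists were chosen with earlier results of these data known, so nothing is read from their counts of calls. Of 8 CA1 markers, 6 were called lower and 0 higher by edgeR, where 4.99% of all genes tested were called lower, and 5 were called by DESeq2. Their median log2 fold change was -0.51, and their summed level was 554 to 558 CPM in Control against 374 to 391 CPM in CBP-ifKO. Wfs1, the most typical of them, fell from 49.1 ± 3.29 to 21.5 ± 1.16 CPM (edgeR adjusted p 8.34e-07). Of 7 CA3 markers 1 was called lower (median -0.22, sums of 635 to 678 and 569 to 630 CPM). Of 8 dentate granule cell markers 3 were called lower, Pdzd2, Plk5 and Trpc6, and 0 higher (median -0.14, sums of 615 to 653 and 586 to 623 CPM). The dentate list was split: 5 of the 8 had a log2 fold change below 0, while Prox1 (0.22), Calb1 (0.23) and Glis3 (0.047) were above 0. The 10 glial markers gave 0 calls by edgeR or DESeq2, with 3 at an unadjusted p under 0.05, a median log2 fold change of -0.054 and sums of 2857 to 3086 CPM in Control against 2743 to 2918 CPM in CBP-ifKO. No marker of any list was at 0 in all libraries, and the part of these cell types in the lower levels of Htr1a, Htr2a and Htr4 was not tested.

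**Figure D4:**
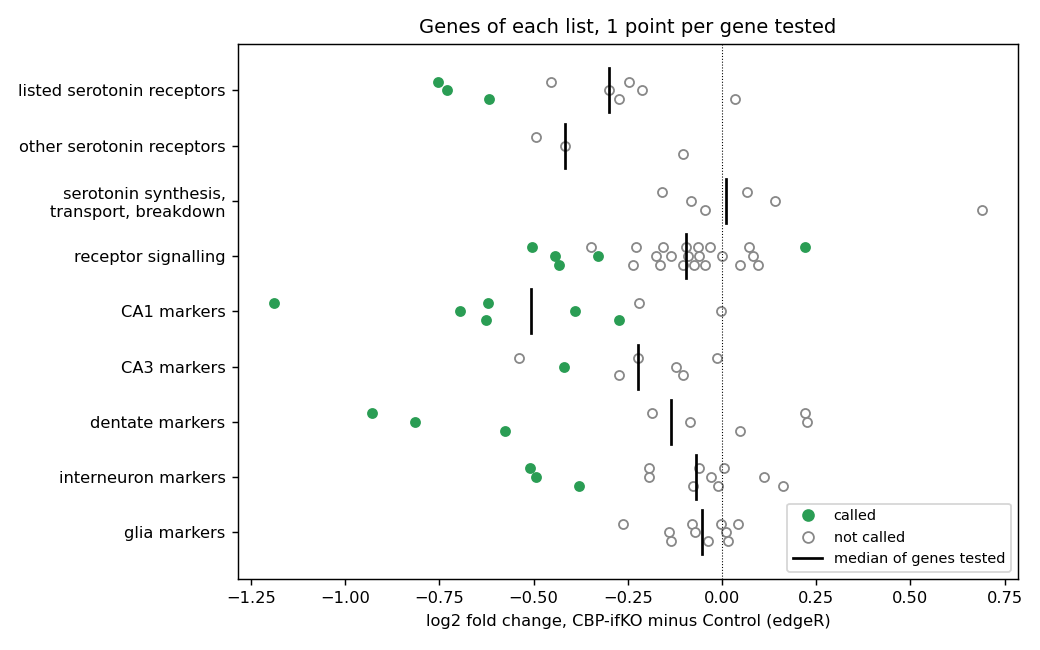
Log2 fold changes, CBP-ifKO minus Control, of the genes tested in each list; filled points were called by edgeR, open points were not, and black lines are medians. The listed receptors (median -0.30) lie between the CA1 markers (-0.51) and the receptor signalling genes (-0.095), and no gene of serotonin synthesis, transport and breakdown is filled.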

How the data were processed

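RNA-seq of hippocampus was analysed in 3 Control and 3 CBP-ifKO libraries (single-end, 50 bp), grouped by their titles. Per the study's methods and the submitters' processing notes, the authors trimmed the reads (Trim Galore 0.6.4, FastQC 0.11.8), aligned them with STAR 2.6.1 to GRCm38, kept reads above a mapping quality cut-off, which drops reads that fit several places, and assigned them to exons with Rsubread. They deposited raw counts per gene, without normalization, and exon lengths in bp, used here for CPM per kb. The strand setting is not given in the sources used here, so exon overlaps are named for the receptor, serotonin and signalling genes given by name. Those not given above are of Slc22a3 (9.31% of its exon bases, with Plg) and Slc18a2 (2.12%, with Gm29261), both on the other strand. The study compared genotypes with DESeq2 1.30.1.

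Symbols matched 55144 of 55471 gene IDs (99.4%). Counts were tested with edgeR 4.0.16 in R 4.3.3 (quasi-likelihood test, genotype only, TMM scaling, genes kept by filterByExpr at 10 counts and 15 in total, Benjamini-Hochberg adjustment over all genes tested). The steps were tested on simulated data. Levels are mean ± SD, and an SE belongs to a log2 fold change. Count-based limits cover counting error only. Alternatives were DESeq2 1.42.0, other scalings and filters, each library left out, a replicate block, and removal of GC and length trends (splines, 5 degrees of freedom). Replicates differed by more than counting noise (chi-square of 2.46 or more per degree of freedom).

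The 10 receptors and all lists were chosen with earlier results of these data known. The rule named the receptors of the family, the genes of serotonin synthesis, transport and breakdown, those of the signalling list past the threshold, Crebbp, Esr1 and Arsi, the 3 genes most like each called receptor, and marker genes set beside a receptor. Kcnj3 and Kcnj6 lie outside it and were chosen after their values were seen. Marker lists covered CA1, CA3, dentate granule cells, interneurons, choroid plexus, habenula, raphe, neocortex and glia.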

Additional observations from a re-analysis of the deposited data

How the results depend on the processing

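Htr1a, Htr2a and Htr4 were called lower in all 14 alternatives, with log2 fold changes from -0.91 to -0.66, -0.77 to -0.66 and -0.67 to -0.57, and the number of listed receptors called was 3, or 4 with Htr2c. All these fits draw on the same 6 libraries, whose comparison was known when the genes were listed. They show how the values depend on processing and are no independent test of these genes. Precision is limited by depth for Htr1d, Htr5b, Htr1f and Htr6. Leaving out 1 library moved the number of genes called from 1149 to between 500 and 1342 (546 without Control replicate 3, 500 without CBP-ifKO replicate 2, 527 without CBP-ifKO replicate 3). The highest number, 1342, came without Control replicate 2 and was above that of the full fit. The signalling genes called moved to between 3 and 5. Each of these fits has fewer degrees of freedom, and what moved the numbers was not tested. DESeq2 called 896 genes. GC and length trends removed together with the replicate block gave 1841 genes and 1 further receptor (Htr1f); the cause was not tested. Longest transcripts in place of joined exons moved 4 receptors in the order of levels, since the deposited length of Htr2c is longer than any of its transcripts. The sign turned for 3 uncalled genes: Slc29a4 (0.029 with GC and length trends removed, 0.027 with the block as well), Maob (0.0013 with library totals, -0.11 to 0.065 with 1 library left out) and Ddc (-0.30 to 0.098 with 1 library left out). Deviations of same-numbered libraries correlated at 0.077, 0.037 and 0.0022 and 3 of 6 libraries correlated best with their own number, so the numbers were not taken as pairs; the replicate block gave 1210 genes called and 3 listed receptors.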
